A study of Rattus norvegicus with 8 samples.

Results

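The BCL2 family of apoptosis regulators was followed here through 9 genes, Bcl2, Bcl2l1, Bcl2l2, Mcl1, Bax, Bak1, Bad, Bid and Bcl2l11, out of 35497 gene names on a rat oligonucleotide array. A member was any probe outside the array controls that carried one of these names in the array design, which gave 17 of 41012 probes, printed as 44 of 43379 spots. The samples were medial thalamus from 8 male Sprague-Dawley rats with a labelled weight of 277 g, all under urethane and all fitted with an inflatable tracheal cuff. In the 4 occlusion rats the cuff closed the airway for 2 to 4 breaths at a time, each closure was followed by at least 15 free breaths, and this went on for 10 min before the brain was taken at once. In the 4 surgical control rats the cuff stayed deflated, and 70 min passed between setup and removal of the brain. For occlusion rats that interval is not stated in the sources used here, and length of anaesthesia and treatment therefore cannot be told apart. Each animal was labelled with Cy5 and hybridised on 1 array against a Cy3-labelled pool of all 8, with no dye swap, so each value below is a log2 ratio of that animal to the pool. The labels describe the rats as separate animals. Each of 2 slides carried 2 animals of either group, with occlusion 1 and 2 and control 3 and 4 on slide 1.

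Proteins of the BCL2 family decide whether the outer mitochondrial membrane stays intact. Bax and Bak1 proteins form pores in it that release cytochrome c and so activate caspases, the survival proteins (products of Bcl2, Bcl2l1, Bcl2l2 and Mcl1) hold them in check, and the BH3-only proteins (products of Bad, Bid and Bcl2l11) sense damage and oppose the survival proteins or activate the pore formers. In adult neurons the family also acts outside cell death, on mitochondrial shape and calcium handling, and much of its control is on the protein rather than on the transcript.

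RefSeq promoter windows (GRCr8 build, 250 bases before to 50 after a listed start) were matched for 8 of the 9 members, and Bax is named only. The 250 upstream bases of Bcl2l2 and Mcl1 are shown, on the plus strand of chr15:32326511-32326760 and chr2:185907918-185908167. These survival genes were taken from the pairs described below, by the correlation (r) of their values across animals. Only their r was not smaller without the animals farthest from the median of a pair's first gene, here Bcl2l2. Leaving out the animals farthest from the Mcl1 median was not tried. Without occlusion 1 and control 3 their r was 0.70 in place of 0.72. The pair was chosen after those values were seen. Capitals mark the GC box, searched as GGGCGG on both strands and found here on the minus strand.
Bcl2l2: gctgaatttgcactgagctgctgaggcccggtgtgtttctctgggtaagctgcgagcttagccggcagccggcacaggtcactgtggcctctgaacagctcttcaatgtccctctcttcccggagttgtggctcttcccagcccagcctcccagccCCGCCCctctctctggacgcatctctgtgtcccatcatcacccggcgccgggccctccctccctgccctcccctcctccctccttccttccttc
Mcl1: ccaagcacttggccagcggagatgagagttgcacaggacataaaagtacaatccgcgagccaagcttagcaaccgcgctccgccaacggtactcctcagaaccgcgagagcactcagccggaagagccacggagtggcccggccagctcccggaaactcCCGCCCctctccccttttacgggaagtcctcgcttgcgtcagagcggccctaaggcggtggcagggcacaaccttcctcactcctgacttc
The first capital lies at -94 from the start in Bcl2l2 and at -91 in Mcl1, and each window held 1 match. Of 33469 promoter windows of this length, 33.1% held the GC box on either strand. Among the other members it was also in the windows of Bid (3 matches), Bcl2l11 (2) and Bak1 (1). A window of Bcl2l1 held it as well, while those of Bcl2 and Bad did not. The GC box is therefore not particular to this pair. Neither window held, on either strand, the CCAAT box (CCAAT, present in 37.5% of all windows), the E-box (CACGTG, in 6.42%) or the cyclic AMP response element (TGACGTCA, in 1.83%). These matches describe the letters in the windows only.

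On the arrays as a whole, the scanner software's own criterion placed 68.3% to 80.2% of Cy5 signals well above background. A probe was tested where it met that criterion on at least 4 of the 8 arrays, and a gene was read from its brightest tested probe. Of 26958 genes tested, 0 passed an adjusted p of 0.05 between occlusion and control (limma, Benjamini-Hochberg), which is 0% of genes, and 835 (3.1%) had an unadjusted p under 0.05. The median log2 difference over all genes was 0.0032. Control 3 stood apart, with a mean log2 ratio of -2.08 over 7 of 8 listed thalamic relay neuron markers, against -0.24 to 0.24 in the other animals, and of 1.41 over 7 of 8 listed cortex markers, against -0.86 to -0.68. In occlusion 3, 6 of 7 listed choroid plexus markers had a mean of 1.38. Both animals stay in the values below, and members that move with them are given without them as well, on the brightest probe only. In pieces of tissue, fewer cells of a type and less RNA per cell cannot be told apart.

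Of the 9 members, 8 could be tested and 0 passed. The 4 survival genes, each read from its brightest probe, were all higher in mean under occlusion, with log2 differences from 0.05 to 0.25. The sign of Bcl2l1 turned on slide 2 alone and when its probes were averaged, and the dimmer tested probes of Bcl2l1 and Bcl2l2 were lower. Both pore-forming effectors and both tested BH3-only genes were lower in mean, by less than their standard errors, and each of these 4 turned sign in at least 1 alternative. Over the 8 genes, 4 were higher and 4 lower, where 51.1% of all tested genes were higher, and the members' median difference was 0.02. The median size of a difference, regardless of sign, was 0.077 over the members and 0.079 over all genes. The groups did not overlap for 1 member, Bcl2, which was higher. Over all tested genes the groups did not overlap for 2.46%, and for 1.22% they did not overlap with occlusion higher.

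**Figure D1:**
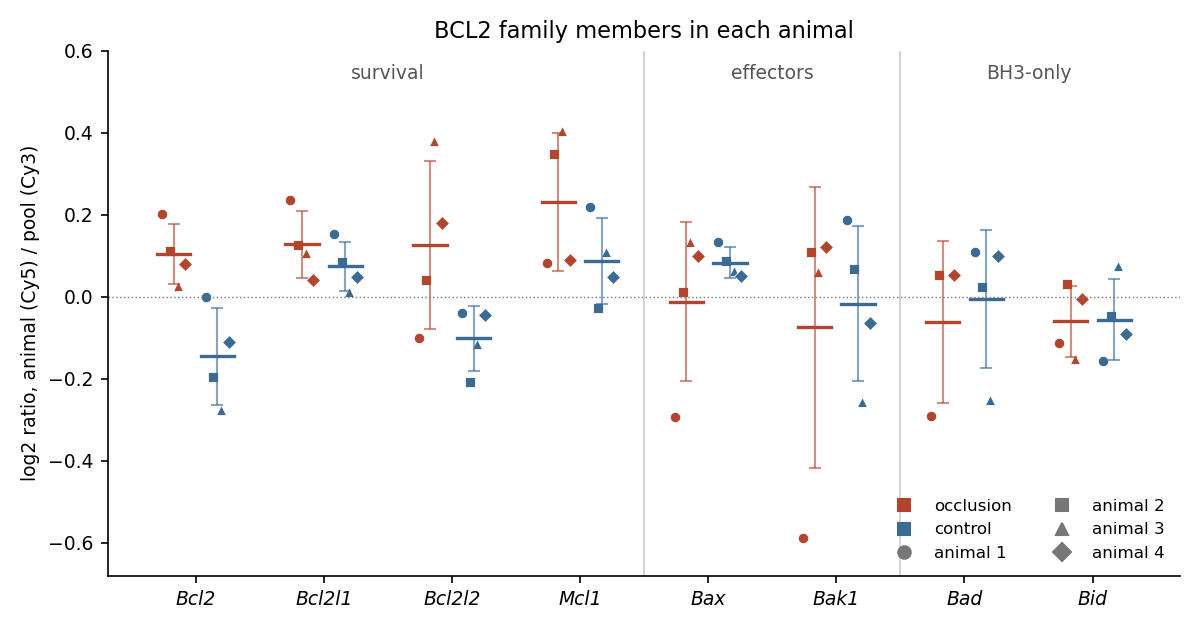
Log2 ratio of each animal (Cy5) to the pool of all 8 (Cy3) for the 8 tested BCL2 family genes, read from the brightest probe, with occlusion in red to the left of control in blue. Symbols are animals 1 to 4 of a group, horizontal bars are group means and error bars are 1 SD (n = 4 per group, n = 3 for Bad under occlusion). Bcl2 is the one gene whose groups do not overlap, and occlusion 1 is the lowest animal for Bax, Bak1 and Bad.

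Bcl2 encodes the founding survival protein of the family. Its brightest probe, A_44_P360756, lies at chr13:12903960-12904017 (minus strand) in rn3, the build of the array design, and was designed on a partial mRNA for the beta form of the protein. The log2 ratio was 0.20, 0.11, 0.03 and 0.08 in occlusion rats 1 to 4, against 0.0002, -0.19, -0.28 and -0.11 in control rats 1 to 4. All occlusion rats lay above all control rats, though occlusion 3 and control 1 were only narrowly apart. The means were 0.10 ± 0.07 under occlusion and -0.15 ± 0.12 in controls (SD, n = 4 each), a log2 difference of 0.25 with a standard error of 0.08 and a 95% interval of 0.06 to 0.44, or 1.19-fold. The exact permutation p was 0.0286, the smallest that 4 against 4 animals allow, but across all genes the adjusted p was 0.976 (limma). The difference was 0.35 within slide 1 and 0.15 within slide 2, and 0.21 without control 3. The uncorrected Cy5 intensity of this spot was 300.0, 281, 215 and 235 in the occlusion rats and 224, 188, 248 and 248 in the controls, over a local background of about 57. On that scale, before the pool channel and normalisation enter, the groups overlapped over both slides together and within slide 2. Within slide 1 both occlusion rats were higher than both controls.

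The other Bcl2 probe, A_44_P280776, lies 798 bases away at chr13:12904758-12904817 and was printed 10 times on each array. It gave -0.05, -0.09, -0.13 and -0.16 in occlusion rats 1 to 4, against -0.07, -0.17, -0.13 and -0.11 in control rats 1 to 4. The groups overlapped almost entirely, and the log2 difference was 0.009 with a 95% interval of -0.14 to 0.16. The difference seen at the bright probe was therefore not seen at this one, which was dimmer, with Cy5 intensities of 105 to 123. Over the 8 animals the log2 ratios of the probes correlated at r = 0.52, as a description.

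Bcl2l1 encodes Bcl-xL, a principal survival protein of mature neurons. Probe A_44_P254238, at chr3:143034965-143035024 in rn3 on a transcript labelled as variant 3, gave 0.24, 0.13, 0.11 and 0.04 in occlusion rats 1 to 4, against 0.15, 0.08, 0.01 and 0.05 in control rats 1 to 4. Occlusion 1 was highest and control 3 lowest, and the groups overlapped. The log2 difference was 0.05 with a standard error of 0.07, and the exact permutation p was 0.371. It was 0.15 within slide 1 and -0.04 within slide 2, 0.03 without control 3 and 0.02 without occlusion 1. Bcl2l1 varied little between animals, with an SD over all 8 of 0.072, a spread lower than in all but 5.2% of tested genes.

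A pair of further Bcl2l1 probes, A_42_P623909 and A_44_P548065, lies 48678 and 49160 bases from the first, at chr3:143083643-143083702 and chr3:143084125-143084184. A_42_P623909 gave -0.12, -0.02, -0.35 and -0.14 in occlusion rats 1 to 4, against -0.08, -0.04, -0.18 and -0.10 in control rats 1 to 4. A_44_P548065 gave -0.09, -0.06, -0.21 and -0.11 in occlusion rats 1 to 4, against -0.07, -0.02, -0.15 and -0.06 in control rats 1 to 4. On both probes occlusion 3 was lowest, the groups overlapped and the differences were negative, -0.06 and -0.04. On A_42_P623909 occlusion 3, at -0.35, lay well below the next lowest animal, control 3 at -0.18. These differences were not taken without occlusion 3, so how far their sign rests on that animal was not tested. Their log2 ratios correlated with each other at r = 0.95, but with those of A_44_P254238 at only 0.13 each. A probe of 10 spots, A_43_P12577, was well above background on 0 arrays and was not tested.

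Bcl2l2 encodes Bcl-w, a survival protein of neurons and other long-lived cells. Probe A_44_P550346, at chr15:33003630-33003689 in rn3, gave -0.10, 0.04, 0.38 and 0.18 in occlusion rats 1 to 4, against -0.04, -0.21, -0.12 and -0.04 in control rats 1 to 4. Occlusion 3 was highest, and occlusion 1 lay among the controls. The means were 0.13 ± 0.20 under occlusion and -0.10 ± 0.08 in controls (SD, n = 4 each). The log2 difference was 0.23 with a standard error of 0.11, or 1.17-fold, and its 95% interval ran from -0.02 to 0.47. The exact permutation p was 0.0857 and the adjusted p over all genes 0.976 (limma). The slides differed in size, with 0.05 within slide 1 and 0.40 within slide 2, where occlusion 3 was hybridised, and 0.14 without that animal. Choroid plexus markers were also high in occlusion 3, and their part in this value was not tested.

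The dimmer Bcl2l2 probe, A_44_P112788, lies 3460 bases away at chr15:33000170-33000229. It gave -0.14, -0.33, -0.24 and -0.16 in occlusion rats 1 to 4, against -0.13, -0.12, -0.20 and -0.16 in control rats 1 to 4. Here the log2 difference was -0.06, the groups overlapped, and the animals' values correlated with those of the bright probe at r = -0.43. The sign for Bcl2l2 therefore depended on the probe.

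Mcl1 encodes a short-lived survival protein whose level depends on steady synthesis. Probe A_44_P280965, at chr2_random:2891685-2891744 in rn3, gave 0.08, 0.35, 0.40 and 0.09 in occlusion rats 1 to 4, against 0.22, -0.03, 0.11 and 0.05 in control rats 1 to 4. Occlusion 2 and 3 lay above every control, while occlusion 1 and 4 lay among them. The log2 difference was 0.14 with a standard error of 0.10 and an exact permutation p of 0.229, and it was 0.14 within slide 1, 0.15 within slide 2 and 0.09 without occlusion 3. Probe A_44_P101211, at chr2_random:2891461-2891520, gave 0.02, 0.16, -0.07 and -0.15 in occlusion rats 1 to 4, against -0.12, -0.13, -0.02 and -0.18 in control rats 1 to 4. Its difference was 0.10, so both Mcl1 probes were higher in mean under occlusion without passing, with r = 0.52 between them. A further probe with the Mcl1 name, A_44_P384618, is described in the array design as similar to a hypothetical protein and lies on chromosome 3. It was well above background on 0 arrays and was not tested.

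**Figure D2:**
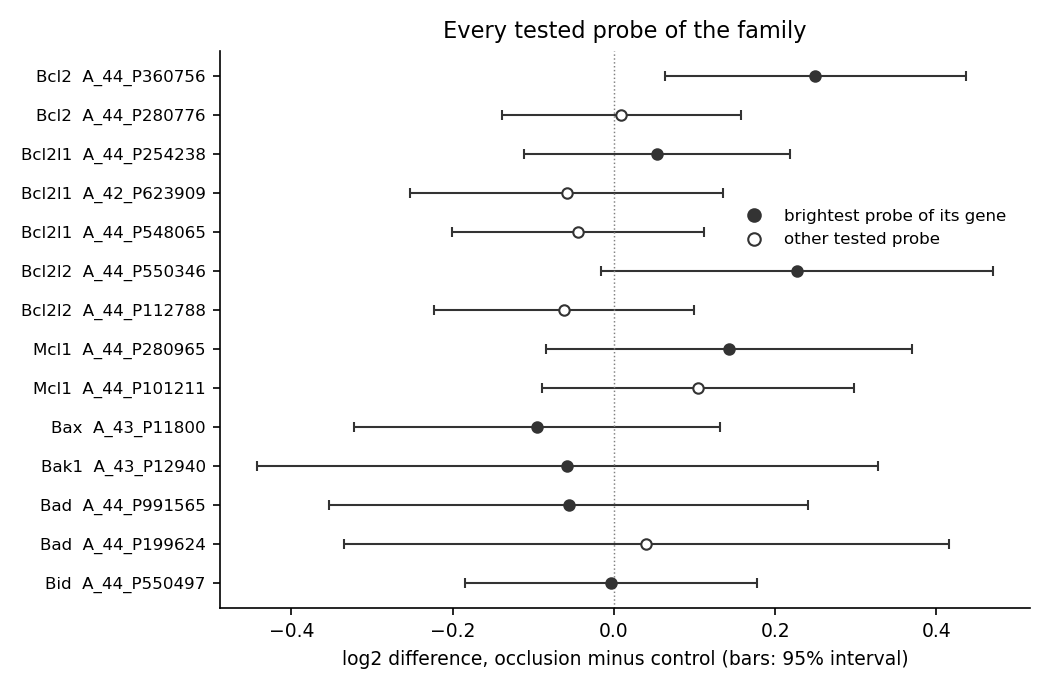
Log2 difference, occlusion minus control, for each of the 14 tested probes of the family (points) with 95% intervals from limma (bars). Filled points are the brightest probe of a gene and open points its other tested probes. Of the 14 intervals, that of Bcl2 probe A_44_P360756 lies above 0 and the others span it, and for Bcl2l1, Bcl2l2 and Bad the probes of a gene fall on both sides of 0, for Bad with occlusion 3 measured on the dimmer probe only.

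Across the family, 7 tested probes were higher and 7 lower in mean under occlusion, where 50.7% of all 31670 tested probes were higher, and 0 passed (0% of all tested probes). Of the 5 genes with several tested probes, 3 had probes of opposite sign. Over the animals measured on every probe of a gene, that count was 2, Bcl2l1 and Bcl2l2, since the Bad probes then had the same sign. These counts hold occlusion 3, the lowest animal on the dimmer tested Bcl2l1 probes, and were not taken without it.

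Bax encodes a pore-forming effector that moves from the cytosol to mitochondria when activated. Its probe A_43_P11800, for which the files give no genome position, was printed 10 times per array. The mean log2 ratio was -0.29, 0.01, 0.13 and 0.10 in occlusion rats 1 to 4, against 0.13, 0.09, 0.06 and 0.05 in control rats 1 to 4. Occlusion 1 lay below all other animals, and the other 3 occlusion rats lay around the controls. The group means were -0.01 ± 0.19 under occlusion and 0.08 ± 0.04 in controls (SD, n = 4 each), a log2 difference of -0.10 with a standard error of 0.10 and an exact permutation p of 0.457. Without occlusion 1 the difference was -0.0016, and it was -0.20 within slide 1 and 0.006 within slide 2, which does not hold that animal.

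The replicate spots give the scatter of the Bax value within an array. It does not cover labelling or hybridisation, which were done once per animal. Between 7 and 10 spots were used per array, and their SD within an array had a median of 0.067, which gives a standard error of a mean of 0.024. The SD between the 8 animals was 0.14. In occlusion 1 the spots ran from -0.35 to -0.22, below the lowest spot of any other animal, which was -0.17 in occlusion 3. The spots of occlusion 1 thus lay apart from those of the other arrays. For the 10-spot Bcl2 probe the SD between spots had a median of 0.081, giving a standard error of 0.028, and the SD between animals was 0.043.

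**Figure D3:**
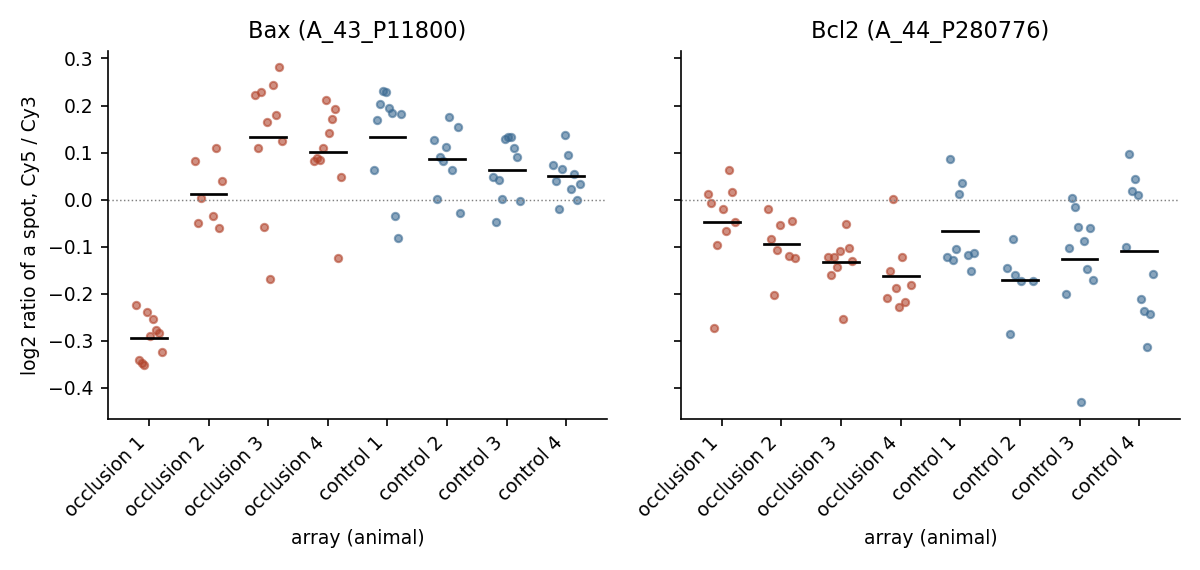
Log2 ratios (Cy5 over Cy3) of the single spots of the Bax probe and of Bcl2 probe A_44_P280776 on each array, occlusion in red and control in blue. Points are spots left after outlier removal and lines are their means. All Bax spots of occlusion 1 lie below those of every other array, whereas the Bcl2 spots of all arrays overlap.

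Bak1 encodes the other pore former, which resides in the mitochondrial membrane. Probe A_43_P12940, at chr20:5256269-5256328 in rn3, gave -0.59, 0.11, 0.06 and 0.12 in occlusion rats 1 to 4, against 0.19, 0.07, -0.26 and -0.06 in control rats 1 to 4. Occlusion 1 was far below the rest and control 3 was the next lowest. The log2 difference was -0.06 with a standard error of 0.17 and an exact permutation p of 0.800. It turned to 0.11 without occlusion 1 and was -0.14 without control 3, with -0.08 within slide 1 and -0.04 within slide 2. Bak1 varied more between animals than most genes, with an SD over all 8 of 0.26, above that of 81.9% of tested genes.

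Bad encodes a BH3-only protein that growth factor signalling keeps phosphorylated and inactive. Probe A_44_P991565, at chr1:209784430-209784489 in rn3, gave -0.29, 0.05 and 0.05 in occlusion rats 1, 2 and 4, against 0.11, 0.02, -0.25 and 0.10 in control rats 1 to 4. Its spot in occlusion 3 was an outlier by the scanner's flag and was left out. Occlusion 1 and control 3 were again the lowest animals, and the groups overlapped. The log2 difference was -0.06 with a standard error of 0.13 and an exact permutation p of 0.514, and it was 0.06 without occlusion 1 and -0.14 without control 3. Within the slides it was -0.04 and -0.01. Probe A_44_P199624, spanning chr1:209775908-209776403, was measured in all 8 animals. It gave -0.44, -0.15, 0.27 and 0.08 in occlusion rats 1 to 4, against 0.20, -0.16, -0.34 and -0.10 in control rats 1 to 4. The difference there was 0.04, of opposite sign, but it held occlusion 3, the highest animal, which the first probe lacked. Over the 7 animals measured on both probes the differences were -0.07 for A_44_P199624 and -0.06 for A_44_P991565, and the probes correlated at r = 0.85.

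Bid encodes a BH3-only protein that caspase-8 cleaves, which links death receptors to mitochondria. Probe A_44_P550497, at chr4:157542812-157542871 in rn3, gave -0.11, 0.03, -0.15 and -0.01 in occlusion rats 1 to 4, against -0.16, -0.05, 0.07 and -0.09 in control rats 1 to 4. The groups overlapped throughout, and the log2 difference was -0.004 with a 95% interval of -0.18 to 0.18 and an exact permutation p of 0.971. It was -0.03 within slide 1 and 0.02 within slide 2.

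Bcl2l11 encodes Bim, a BH3-only protein that is induced in neurons deprived of trophic support. Its single probe, A_44_P508055, at chr3:115628179-115628238 in rn3, was well above background on 0 arrays and was an outlier in occlusion 1. The Cy5 intensity was 88.7, 80.7 and 85.3 in occlusion rats 2 to 4, against 93.0, 85.7, 87.1 and 85.3 in control rats 1 to 4, over a local background of about 58. The transcript was thus not well above background with this probe in either group, and no difference is given.

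Occlusion 1 stood out for several members. Read from the brightest probe, it was the lowest of all animals for Bax, Bak1 and Bad, and the highest for Bcl2 and Bcl2l1. For Bad control 3 was close, at -0.25 against -0.29. On the dimmer tested Bcl2l1 probes occlusion 1 was not the highest. For Bcl2l2, Mcl1 and Bid occlusion 1 lay among the other animals. Without it, 7 of the 8 tested members were higher in mean and 1, Bax, was lower, and 0 passed. Several of these differences were small, with Bid at 0.01, Bcl2l1 at 0.02 and Bax at -0.0016. The share of all tested genes that were higher without occlusion 1 was not taken. In the same animal 2 of 3 listed red cell markers had a mean log2 ratio of -1.22, against -0.14 to 0.18 in occlusion 2 to 4 and -0.14 to 0.63 in controls. Its relay neuron mean was -0.24, against 0.17 to 0.21 in occlusion 2 to 4 and 0.16 to 0.24 in control 1, 2 and 4. Its oligodendrocyte mean, over all 6 listed markers, was 0.20, against -0.49 to -0.28 in occlusion 2 to 4 and -0.52 to -0.14 in controls. The part of these markers in the member values was not tested.

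The balance of Bax and Bcl2 is often used to describe how close a cell stands to apoptosis, and it was taken here as the Bax minus the Bcl2 log2 ratio within each animal. It was -0.49, -0.10, 0.11 and 0.02 in occlusion rats 1 to 4, against 0.13, 0.28, 0.34 and 0.16 in control rats 1 to 4. All occlusion rats lay below all controls, with means of -0.12 ± 0.27 under occlusion and 0.23 ± 0.10 in controls (SD, n = 4 each). This measure holds the Bcl2 separation already given and is no separate observation. With the other Bcl2 probe the difference between the group means was -0.10 in place of -0.35. The values then were -0.25, 0.11, 0.27 and 0.26 in occlusion rats 1 to 4, against 0.20, 0.26, 0.19 and 0.16 in control rats 1 to 4, and the groups overlapped. Without occlusion 1 the difference was -0.22 with the bright Bcl2 probe and 0.01 with the other.

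Over the animals, 28 pairs of members were compared by correlation of their log2 ratios, and 0 passed after Benjamini-Hochberg adjustment, with a smallest adjusted p of 0.2995 by exact permutation. Bak1 and Bad had r = 0.90 and rho = 0.79 over 7 animals, with exact permutation p of 0.0127 and 0.048 and adjusted p of 0.2995 and 0.539. That relation rested on occlusion 1 and control 3, and without them r was -0.06. Bax and Bak1 had r = 0.87 and rho = 0.64 (exact permutation p = 0.0275 and 0.0962, adjusted 0.2995 and 0.539), with r = 0.75 without occlusion 1 and 2. Without occlusion 1 alone that r was 0.36, and without occlusion 1 and control 3 it was 0.39. Bcl2l2 and Mcl1, the genes whose promoters are printed above, had r = 0.72 and rho = 0.71 (exact permutation p = 0.0428 and 0.0576, adjusted 0.2995 and 0.539). Without occlusion 3 and 4, the animals farthest from the Bcl2l2 median, their r was 0.87, and without occlusion 1 and control 3 it was 0.70. Bcl2 and Bcl2l1 had r = 0.73 and rho = 0.64 (exact permutation p = 0.0385 and 0.0962, adjusted 0.2995 and 0.539), with r = 0.67 without control 2 and 3. For this pair r was 0.57 without occlusion 1 and 0.26 without occlusion 1 and control 3. All these values share the pool channel and the array, and 4 animals per slide were too few for a value within slides.

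**Figure D4:**
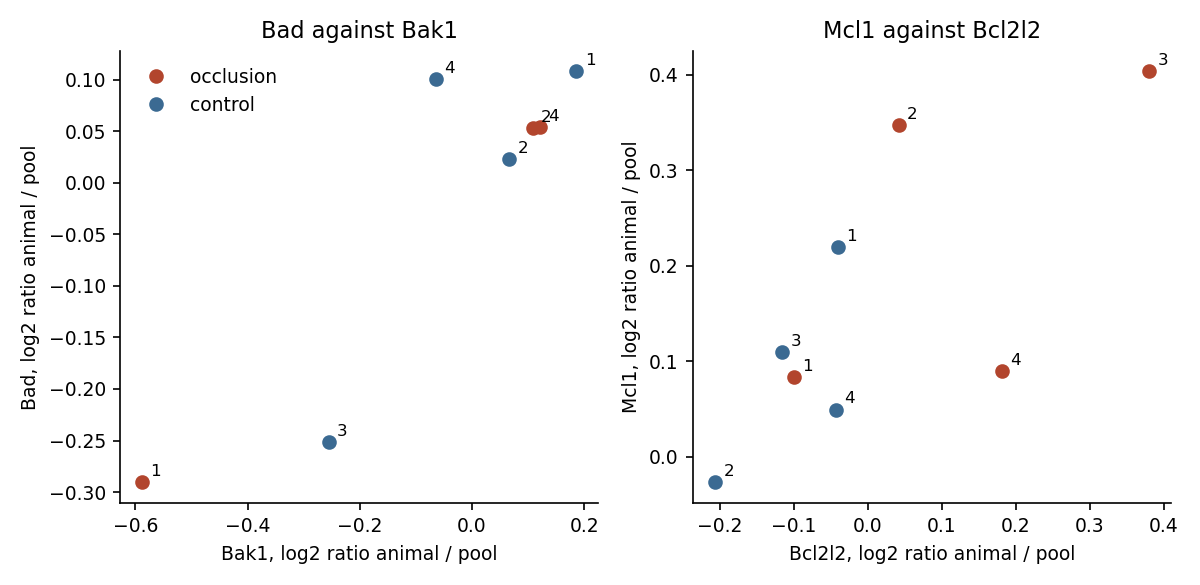
Log2 ratios of Bad against Bak1 (left, 7 animals) and of Mcl1 against Bcl2l2 (right, 8 animals), with occlusion in red, control in blue and the animal's number beside each point. On the left, occlusion 1 and control 3 lie far from the rest and carry the r of 0.90, while on the right, where r is 0.72, occlusion 3 is highest on both axes and control 2 lowest.

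The gene with the most similar profile to each member over the 8 animals was taken from 13080 genes with a symbol and a value in all 8, as a description. It was Resf1 for Bcl2 (r = 0.995), Rassf4 for Bcl2l1 (0.964), Atf2 for Bcl2l2 (0.959) and Pdcd6 for Mcl1 (0.959). It was Camk4 for Bax (0.988), Wipi2 for Bak1 (0.976), Zfp628 for Bid (0.963) and, over 7 animals and 13130 genes, Ndufv3 for Bad (0.993). Each is the highest of its search, and 8 to 225 genes per member had an r above 0.9.

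The rest of the mitochondrial death pathway was read from fixed lists, and 0 genes of any list passed. Of 13 other family members, 10 were tested, with 6 higher, 4 lower and a median log2 difference of 0.03. Hrk, a neuronal BH3-only gene, had -0.13, -0.13, -0.39 and 0.13 in occlusion rats 1 to 4, against 0.03, 0.16, 0.71 and -0.08 in control rats 1 to 4, a difference of -0.34 with a standard error of 0.18. Control 3 was the highest of these and occlusion 3 the lowest, and without control 3 the difference was -0.17. Bok, a pore-forming relative of Bax and Bak1, had -0.79, 0.06, 0.07 and 0.02 in occlusion rats 1 to 4, against -0.04, -0.07, -1.48 and 0.21 in control rats 1 to 4, a difference of 0.19 with a standard error of 0.36. As for Bak1 and Bad, its lowest animals were occlusion 1 and control 3. Its difference turned to -0.19 without control 3 and was 0.40 without occlusion 1 and 0.11 without occlusion 3. The mitophagy receptor genes Bnip3l, measured in 3 controls, and Bnip3 differed by 0.11 and 0.04. Bnip3l was 0.05 without control 3 and 0.04 without occlusion 3, and Bnip3 was -0.0004 without control 3, 0.02 without occlusion 1 and 0.03 without occlusion 3.

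All 18 listed genes of caspases, the apoptosome and their inhibitors were tested, with 12 higher, 6 lower and a median difference of 0.04. Cycs, which encodes cytochrome c, differed by -0.04, Diablo, an antagonist of caspase inhibitors, by 0.16, the flavoprotein gene Aifm1 by 0.06 and the protease gene Htra2 by -0.12. Without control 3, Cycs was -0.02, Aifm1 0.01 and Htra2 -0.05. Cycs was -0.08 and Aifm1 0.03 without occlusion 1, and Cycs was -0.02 and Htra2 -0.06 without occlusion 3. The groups did not overlap for 1 gene of this list, the initiator caspase gene Casp9, named after its values were seen, against 2.46% of all tested genes. It had -0.36, -0.23, -0.15 and -0.12 in occlusion rats 1 to 4, against -0.04, -0.11, 0.12 and -0.10 in control rats 1 to 4. Occlusion 4 and control 2 were only narrowly apart, at -0.1245 and -0.1092. The Casp9 difference was -0.19 with a standard error of 0.09 (limma adjusted p = 0.976). It was -0.14 without control 3, -0.14 without occlusion 1 and -0.21 without occlusion 3.

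Of 16 listed partners and regulators, 15 were tested, with 6 higher, 9 lower and a median of -0.03. The outer membrane channel gene Vdac3 differed by 0.11, Ywhaz, whose product 14-3-3 zeta binds phosphorylated Bad, by 0.005, the Bim-binding light chain gene Dynll1 by -0.22, and Usp9x, whose product removes ubiquitin from Mcl-1, by 0.12. Single animals carried much of these values. Without control 3, Vdac3 was 0.02, Dynll1 -0.10, Usp9x 0.08 and Ywhaz -0.07, and without occlusion 3 Usp9x was 0.21 and Ywhaz -0.10. Without occlusion 1, Usp9x was -0.0026 and Ywhaz 0.07. One gene of this list, the survival kinase gene Akt1, had groups that did not overlap, against 2.46% of all tested genes. Its difference was -0.10 with a standard error of 0.07 (limma adjusted p = 0.976), and -0.06 without occlusion 3. Occlusion 1 and control 1 were only narrowly apart for Akt1, at -0.3215 and -0.3127. Bag3, a co-chaperone gene, was the one with an unadjusted p under 0.05 in limma, with a difference of 0.37, an adjusted p of 0.976 and groups that overlapped. Akt1 and Bag3 were likewise named after their values were seen.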

How the data were processed

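Feature Extraction 9.5.1.1 (Agilent) was run on each 2-colour array by the authors, per the file headers. Its deposited output gives, per spot and channel, a linear intensity (the mean signal) with the local background median, and also the software's log10 ratio, Cy5 over Cy3. Rounded log10 ratios of the same spots make up the deposited value table: within 1%, all 45018 matched on every array, and each column's median was 0, with 7346 to 9980 exact zeros per column.

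Background was corrected by normexp (offset 50), and loess within each array gave log2 Cy5 over Cy3, with no further scaling between arrays. The normexp parameters were fitted without spots below their local background (at most 11 per channel and array), because on all spots the fitted background mean of occlusion 3 was -567.9 in Cy5, against 2.2 without them. That change was made after the fit was seen, and the fit on all spots is an alternative. Control and outlier spots were dropped before a probe's remaining spots were averaged. Probes needed to be well above background in Cy5 on 4 of 8 arrays, with 2 values per group.

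Groups were compared with limma 3.58.1 in R 4.3.3 (lmFit and eBayes, two-sided, Benjamini-Hochberg over all genes), and members also by two-sided exact permutation over all assignments of the measured animals (70 for 8). The fit was run on simulated data with independent noise for each animal and planted folds larger than that of any member. That run therefore does not cover differences of the members' size or deviations that genes of an array share. Alternatives covered background, normalisation, the scanner's ratios, probe filter and choice, slide and replicate blocks, single slides and each animal left out. The genes named are the members, the gene most alike to each, the 4 brightest tested genes of each pathway list and any gene past the threshold. Casp9, Akt1 and Bag3 fall outside this rule and were named after their values were seen. Members and lists were chosen with earlier results of these data known. Probe sequences are not used here. Precision is limited by 4 animals per group. Figures were drawn with matplotlib 3.10.9.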

Additional observations from a re-analysis of the deposited data

Results flagged for a closer look

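In 10 of 72 checks, each of 1 gene or marker mean within a group of 4 animals, 1 animal was separated from the other 3 by a gap that filled most of the group's range. Chance gives about 1 in 20, or 3.6, and the checks share animals. Among the members, Bak1 was -0.59 in occlusion 1. Bok was -0.79 in occlusion 1 and -1.48 in control 3, and Cycs was -0.22 in control 1. The relay neuron marker mean was -0.24 in occlusion 1 and -2.08 in control 3. Control 3 also stood apart at 1.41 for cortex markers and at 0.93 for markers of meninges and fibroblasts. The choroid plexus mean was 1.38 in occlusion 3, and the endothelium mean was -0.19 in occlusion 1.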

How the results depend on the processing

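In all 22 alternatives 0 genes and 0 members passed the adjusted threshold. Bcl2 stayed positive at 0.13 to 0.35, Bcl2l2 at 0.05 to 0.40 and Mcl1 at 0.09 to 0.19, with limma adjusted p from 0.8699 to 0.9997 over the members' alternatives. Some alternatives could not move these genes. With every probe on its own the brightest was still read, the blocks leave a difference over all animals unchanged, and the deposited values repeat the scanner's ratios. The bright probes of Bcl2, Bcl2l2 and Mcl1 were well above background on all 8 arrays, so the alternative probe filters left their differences unchanged. A dimmer probe read alone was not an alternative, and it gave -0.06 for Bcl2l2 and 0.009 for Bcl2. Of the 176 values of all 8 tested members, 14 changed sign, all of them in Bcl2l1, Bax, Bak1, Bad and Bid, and the cause was not tested. Bcl2l1 was -0.0167 with its probes averaged and -0.0444 on slide 2 alone, where Bax was 0.0065 and Bid 0.0241. Bad was 0.0334 with its probes averaged and 0.0403, from its other probe, with the filter on all 8 arrays. Bid was 0.0028 without background correction and 0.0429 with normexp fitted on all spots, the alternative chosen after seeing the data. With each animal left out in turn, Bid ran from -0.0377 to 0.0394, Bad from -0.14 to 0.0583 and Bak1 from -0.14 to 0.11. Bid turned without occlusion 1, occlusion 3 or control 3, Bad without occlusion 1, and Bak1 without occlusion 1 or control 1. The count of members higher ran from 4 to 7, with 7 without occlusion 1, and genes at an unadjusted p under 0.05 from 610 to 1336, with 1336 without control 1. Same-numbered animals of the groups did not deviate together (r = -0.15, 0.09, -0.14 and 0.05 over 26167 genes), and the numbers were not taken as pairs. With the replicate block 0 genes passed, 4 members were higher and Bcl2 differed by 0.25, while Bad, which loses a pair there, was -0.14. Values of pathway genes and of Bax minus Bcl2 without single animals, and of probes over shared animals, were also added after seeing the data. Low signal limits Bcl2l11, whose single probe was not well above background on any array.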
